A study of Homo sapiens with 12 samples.

Results

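The S100 calcium-binding protein genes described here were 10 of the 60106 genes counted in every library: S100A2, S100A4, S100A6, S100A9, S100A10, S100A11, S100A13, S100A14, S100A16 and S100P. They were matched by gene name, and they had been picked with the siFOXA1 against NSI differences of these same libraries known. Their values in those contrasts are therefore given as a description, without a test. The libraries came from PC3 and VCaP, established human prostate cancer cell lines derived from metastases. PC3 cells, kept in RPMI, received 20 nM of a non-targeting siRNA (NSI) or of an siRNA against the forkhead transcription factor FOXA1 (siFOXA1), and VCaP cells, kept in DMEM, received 40 nM. RNA was taken 72 hours after transfection, with 3 libraries in each of the 4 groups. PC3 libraries were made from polyadenylated RNA and VCaP libraries from total RNA with a different kit, so the line cannot be told apart from the dose, the medium, the kit or the strand setting of the counting. Each line is a single cell line, and the labels do not say whether replicates were separate cultures, so p-values measure the spread between these libraries, which may be technical.

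S100 proteins are small calcium sensors that work as dimers: calcium binding to their EF-hand loops exposes a surface that docks on partner proteins such as annexins, myosin and receptors. Most of the genes lie side by side in the epidermal differentiation region of chromosome 1, and S100P lies apart on chromosome 4. In prostate and other epithelia they are known for marking cell states, since basal, luminal, inflamed and invasive cells carry different members.

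The promoters of 4 members are shown because these genes span the range of differences in VCaP: S100A9, S100A6 and S100A14 were the 3 with the largest log2 increases and S100P had the largest decrease. Each sequence is the 250 bases before the RefSeq transcription start on GRCh38.p14, read 5′ to 3′ along the gene, with CG dinucleotides in capitals. Positions elsewhere in the text are on GRCh37, the build of the deposited counts.
S100A9 (chr1:153357604-153357853, plus strand): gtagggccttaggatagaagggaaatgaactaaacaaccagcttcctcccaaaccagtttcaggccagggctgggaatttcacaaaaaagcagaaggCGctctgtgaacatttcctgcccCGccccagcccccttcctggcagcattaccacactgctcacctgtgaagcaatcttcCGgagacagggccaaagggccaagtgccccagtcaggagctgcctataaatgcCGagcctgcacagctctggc
S100A6 (chr1:153535992-153536241, minus strand): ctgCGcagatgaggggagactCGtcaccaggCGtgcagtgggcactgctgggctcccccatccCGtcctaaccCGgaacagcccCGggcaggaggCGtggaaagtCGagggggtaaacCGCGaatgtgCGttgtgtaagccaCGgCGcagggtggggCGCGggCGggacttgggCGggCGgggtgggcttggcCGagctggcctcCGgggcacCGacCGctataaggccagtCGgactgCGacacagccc
S100A14 (chr1:153616326-153616575, minus strand): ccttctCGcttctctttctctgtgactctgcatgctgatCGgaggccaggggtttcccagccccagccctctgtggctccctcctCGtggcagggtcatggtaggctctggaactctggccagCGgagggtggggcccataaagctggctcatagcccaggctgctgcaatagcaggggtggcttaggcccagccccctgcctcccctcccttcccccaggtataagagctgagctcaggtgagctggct
S100P (chr4:6693628-6693877, plus strand): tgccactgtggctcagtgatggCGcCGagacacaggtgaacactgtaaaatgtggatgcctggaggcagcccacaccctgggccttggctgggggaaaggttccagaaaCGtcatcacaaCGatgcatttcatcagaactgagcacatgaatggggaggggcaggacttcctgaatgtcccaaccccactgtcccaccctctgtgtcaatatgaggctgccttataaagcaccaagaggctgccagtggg
The S100A6 window held 24 CG dinucleotides, and the S100A9, S100A14 and S100P windows held 4 each, against a median of 11 over the 250-base windows of all 35116 RefSeq starts. All 10 members were matched, to 14 of these windows. S100A10 was the other member with 24, S100A11 had 15, and the remaining windows ranged from 1 to 15. A relation between CG content and the VCaP difference was not tested. All words were searched on both strands. The forkhead word TGTTTAC was in 0 of the 14 windows and in 2.98% of all. A second forkhead word, TGTTTGC, was in 0 of the 14 and in 3.23% of all, and the variant TATTTAC in 0 of the 14 and in 2.39% of all. A count of 0 says only that these letters are not in the window. The word TATAAA was in 4 of the 14 windows and in 10.7% of all. Its first base lay 29 bases before the start in S100A9, 31 in S100A4, 29 in an S100A13 window and 28 in S100P. The AP-1 word TGANTCA was in 1 window, of S100A2, and in 6.57% of all.

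Library totals were 123140099 to 188226483 counts in PC3 and 48187047 to 59839211 in VCaP. FOXA1 was lower in the siFOXA1 libraries of both lines. Its mean was 271 ± 30.02 CPM (counts scaled to library size) in PC3 NSI and 169 ± 11.4 in PC3 siFOXA1, a log2 fold change of −0.68 (SE 0.10, edgeR quasi-likelihood adjusted p 0.0022). In VCaP it was 489.3 ± 47.0 and 80.5 ± 6.18 CPM, a log2 fold change of −2.60 (SE 0.09, edgeR adjusted p 1.84e-07; SD, n = 3 throughout). Of 9 luminal prostate markers, all were present in VCaP, whereas in PC3 KLK2, KLK3 and TMPRSS2 were at or near 0. Of 10 interferon response genes, all 10 were called higher in PC3 siFOXA1, with a summed level of 476 to 718 CPM in NSI and 5191 to 5359 CPM in siFOXA1; in VCaP the sums were 153 to 163 and 141 to 155 CPM. The part of the interferon response in the PC3 differences below was not tested.

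**Figure D1:**
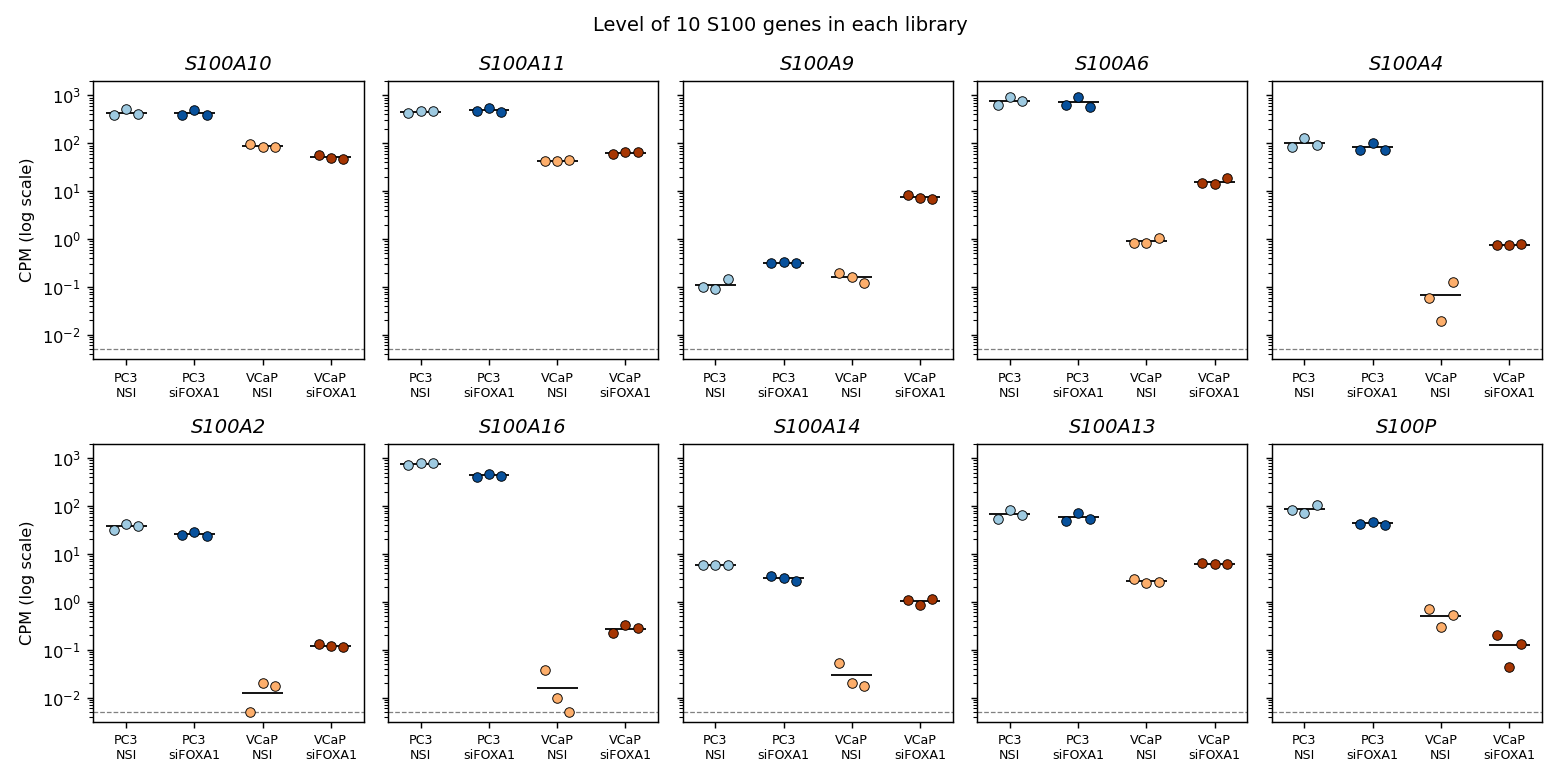
Level of each S100 gene in each library, in CPM on a log axis, with points for replicates 1 to 3 from left to right and bars for the group mean; a point on the dashed line is a library with 0 counts. In VCaP the siFOXA1 points of S100A9, S100A6, S100A4, S100A2, S100A16 and S100A14 lie well above the NSI points, while in PC3 those of S100A2, S100A16, S100A14 and S100P lie below.

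Divided by exon length, the levels of the members spanned more than 3 orders of magnitude within PC3. In PC3 NSI, S100A6 (905 ± 161 CPM per kb) and S100A11 (768 ± 41.1 CPM per kb) stood highest, and their libraries overlapped. S100A16 followed at 474, S100A10 at 347 and S100A4 at 125 CPM per kb. S100A13 (73.0) and S100P (67.1) overlapped, and S100A2 (23.9), S100A14 (4.595) and S100A9 (0.194 CPM per kb) closed the order. In VCaP NSI, S100A11 (72.7 CPM per kb) and S100A10 (69.6) overlapped at the top, and every other member was under 3 CPM per kb. S100A13 had 2.92, S100A6 1.06, S100P 0.399, S100A9 0.273, S100A4 0.0820, S100A14 0.0235, S100A16 0.01001 and S100A2 0.00793 CPM per kb. S100P overlapped S100A9, and each of the last 4 overlapped the next. In VCaP siFOXA1 the order became S100A11 (107.4), S100A10 (40.5), S100A6 (18.8), S100A9 (12.9) and S100A13 (6.82 CPM per kb), with no overlap among these.

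The summed level of the 10 genes was 20.2-fold higher in PC3 NSI than in VCaP NSI, 2724 ± 301 against 135 ± 6.49 CPM. It was 2289 ± 366 CPM in PC3 siFOXA1 and 147 ± 2.82 CPM in VCaP siFOXA1. The make-up of the VCaP sum differed more than the sum did: S100A10 supplied 64.7% of it in NSI and 34.7% in siFOXA1, S100A6 0.667% and 10.8%, and S100A9 0.116% and 5.06%. In PC3 the share of S100A16 was 28.2% in NSI and 19.3% in siFOXA1. A bulk library cannot tell a smaller share of expressing cells from less RNA per cell.

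S100A10 and S100A11 are the annexin-binding members, and they lie together 1321 kb from the main stretch of S100 genes. S100A10 (ENSG00000197747.8_2, chromosome 1, 151955391 to 151966866, minus strand), which has lost calcium binding and pairs constitutively with annexin A2 at the plasma membrane, was lower in VCaP siFOXA1. The VCaP NSI libraries had 94.6, 85.7 and 82.2 CPM and the siFOXA1 libraries 56.4, 48.9 and 47.4 CPM, without overlap. The means were 87.5 ± 6.36 and 50.9 ± 4.78 CPM, so siFOXA1 was at 58.2% of NSI (log2 fold change −0.78, SE 0.08). In PC3 the 396, 511 and 405 CPM of NSI overlapped the 392, 493 and 387 CPM of siFOXA1, and the log2 fold change was −0.04 (SE 0.14).

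The partner of S100A10, ANXA2, moved the other way in VCaP. It rose from 48.5 ± 10.3 to 72.4 ± 7.68 CPM, a log2 fold change of 0.58 (SE 0.14, edgeR adjusted p 0.0073). The ratio of S100A10 to ANXA2, both per kb, was 2.37, 2.81 and 3.09 in the VCaP NSI libraries and 1.04, 1.09 and 1.04 in the siFOXA1 libraries. The ratio was thus lower in every VCaP siFOXA1 library than in any NSI library. In PC3 it was 0.375 ± 0.0235 and 0.399 ± 0.0384, with overlapping libraries.

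S100A11 (ENSG00000163191.5_2, chromosome 1, 152004982 to 152009511, minus strand), which binds annexin A1 and takes part in membrane repair, was higher in VCaP siFOXA1. Its levels were 43.2, 41.9 and 44.5 CPM with NSI and 60.4, 64.9 and 66.1 CPM with siFOXA1. The groups did not overlap, and the means of 43.2 ± 1.31 and 63.8 ± 2.99 CPM gave a 1.48-fold difference (log2 0.56, SE 0.06). In PC3 the 429, 477 and 463 CPM of NSI overlapped the 468, 549 and 459 CPM of siFOXA1, a log2 fold change of 0.11 (SE 0.10). S100A10 and S100A11, adjacent S100 genes of similar level in VCaP NSI, therefore differed in direction in VCaP.

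S100A9 (ENSG00000163220.10_2, chromosome 1, 153330330 to 153333503, plus strand) encodes a subunit of calprotectin, the inflammatory complex with S100A8 that is abundant in neutrophils and monocytes and can act on TLR4 and on AGER, the receptor RAGE. It was the member with the largest log2 fold change in VCaP and the sole member called higher in PC3. The VCaP NSI libraries had 0.192, 0.159 and 0.122 CPM and the siFOXA1 libraries 8.17, 7.19 and 6.90 CPM. That is 25 summed counts against 1137, and the means of 0.158 ± 0.0355 and 7.42 ± 0.664 CPM differed 47.0-fold (log2 5.55, SE 0.18). In PC3 it stayed at a low level, with 0.102, 0.0898 and 0.144 CPM with NSI and 0.322, 0.330 and 0.315 CPM with siFOXA1. The PC3 groups did not overlap either, with a log2 fold change of 1.51 (SE 0.27) resting on 54 and 151 summed counts.

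S100A8, the partner subunit, was not tested in either line because of its low counts. VCaP had 0, 0.25 and 0 counts of it in NSI and 5, 3 and 8 in siFOXA1, and no PC3 library had more than 0.5. TLR4 rose in VCaP from 3.64 ± 0.160 to 14.98 ± 1.37 CPM, a log2 fold change of 2.04 (SE 0.10, edgeR adjusted p 6.49e-07), with all 3 siFOXA1 libraries above all 3 NSI libraries. AGER did not pass the test in either line. Myeloid markers were read beside S100A9. In VCaP the summed level of 6 of them was 1.14 to 1.57 CPM in NSI and 2.86 to 3.48 CPM in siFOXA1, and CD14 was the 1 marker of 2 tested that was called higher. PTPRC, the leukocyte common antigen, had 5.5 to 6.25 counts in VCaP NSI and 0, 2 and 0.62 in siFOXA1, too few to be tested. In PC3 4 of 5 tested myeloid markers were called higher, where 13.9% of all genes tested were. The sum of the 6 was 27.8 to 30.9 CPM in NSI and 45.9 to 51.6 CPM in siFOXA1. CD68 held most of that sum. PTPRC, CD14 and LYZ, the other markers called, were under 1 CPM in both PC3 groups. PTPRC rose with S100A9 in PC3 (log2 2.16, SE 0.62, edgeR adjusted p 0.033), from at most 8 counts in NSI to between 12 and 20 in siFOXA1. The part of these markers in the PC3 value of S100A9 was not tested.

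S100A6 and S100A4, neighbours in the main stretch, bind cytoskeletal and ubiquitin-linked partners. S100A6 (ENSG00000197956.9_2, chromosome 1, 153507075 to 153508720, minus strand), or calcyclin, binds the CACYBP and SUGT1 adaptors. It had 0.827, 0.816 and 1.05 CPM in VCaP NSI and 14.9, 14.2 and 18.6 CPM in VCaP siFOXA1. The 3 libraries of each group lay close together and the means, 0.898 ± 0.132 and 15.9 ± 2.35 CPM, differed 17.7-fold (log2 4.13, SE 0.15). Even so, the VCaP siFOXA1 level was far below that of PC3, where S100A6 had 634, 907 and 758 CPM with NSI and 641, 943 and 582 CPM with siFOXA1. The PC3 groups overlapped, with a log2 fold change of −0.09 (SE 0.19).

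S100A4 (ENSG00000196154.11_3, chromosome 1, 153516089 to 153522612, minus strand), called metastasin for its link to tumour cell spread, binds non-muscle myosin IIA, the product of MYH9. Its VCaP counts were 3, 1 and 7.25 with NSI and 38, 37 and 41 with siFOXA1. The means were 0.0678 ± 0.0537 and 0.756 ± 0.0226 CPM, an 11.1-fold difference, and the log2 fold change was 3.42 (SE 0.36). The summed counts of 11 and 116 gave a ratio of 10.99 with a 95% exact interval, which covers counting error only, of 5.92 to 22.6. Without NSI replicate 3, which held most of the NSI counts, the log2 fold change was 4.19. In PC3, S100A4 had 85.8, 131 and 93.4 CPM with NSI and 72.3, 104 and 72.0 CPM with siFOXA1, overlapping groups with a log2 fold change of −0.32 (SE 0.19). With replicate numbers as a block the same PC3 value had an SE of 0.06 and was called. Fibroblast markers, listed because S100A4 is also used to mark that cell type, summed to 10.9 to 19.7 CPM in VCaP NSI and 1.45 to 5.61 CPM in VCaP siFOXA1. LUM held most of the NSI sum. Of 4 tested, LUM and PDGFRB were called lower, and COL1A1 and COL1A2 were not called.

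Of the partners of these genes, CACYBP fell by 0.17 on the log2 scale in VCaP (SE 0.06, edgeR adjusted p 0.049) and SUGT1 fell by 0.52 (SE 0.05, edgeR adjusted p 4.93e-05). MYH9 did not pass the test in either line. In PC3 none of CACYBP, SUGT1 and MYH9 passed in the fit without a replicate block, though each was lower in siFOXA1 within each replicate number.

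S100A2, S100A16 and S100A14 were lower in PC3 siFOXA1 and higher in VCaP siFOXA1, where they started near 0. S100A2 (ENSG00000196754.10_2, chromosome 1, 153533584 to 153540366, minus strand) is a nuclear S100 protein of basal epithelial cells. In PC3 it had 31.9, 41.6 and 38.6 CPM with NSI and 24.9, 28.5 and 24.0 CPM with siFOXA1, means of 37.4 ± 4.99 and 25.8 ± 2.37 CPM and a log2 fold change of −0.54 (SE 0.12). The groups did not overlap, but the call was lost without siFOXA1 replicate 1. In VCaP it had 2 summed counts with NSI and 19 with siFOXA1, a ratio of 9.90 with an exact counting interval of 2.39 to 87.6. NSI replicate 1 had 0 counts, which allows up to 0.0577 CPM, and the gene did not pass the filter on low counts.

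S100A16 (ENSG00000188643.10_2, chromosome 1, 153579362 to 153585559, minus strand), a widely expressed member, was among the most abundant in PC3. There it had 703, 795 and 796 CPM with NSI and 409, 473 and 434 CPM with siFOXA1. The means were 764 ± 53.5 and 439 ± 32.5 CPM, so siFOXA1 was at 57.4% of NSI without overlap, a log2 fold change of −0.80 (SE 0.10). In VCaP it had 2, 0.5 and 0 counts in NSI, the last allowing up to 0.0521 CPM, and 11, 16.1 and 15 counts in siFOXA1. The summed ratio was 14.6 with an exact counting interval of 4.66 to 73.6, and the log2 fold change of 3.71 (SE 0.56) was 4.55 without NSI replicate 1 and 3.12 without NSI replicate 3.

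S100A14 (ENSG00000189334.8_2, chromosome 1, 153586731 to 153589462, minus strand), an epithelial member with weak calcium binding, was nearly the same in the PC3 NSI libraries at 5.90, 5.87 and 5.83 CPM. It had 3.38, 3.11 and 2.71 CPM in PC3 siFOXA1, 52.3% of the NSI mean, a log2 fold change of −0.94 (SE 0.12). In VCaP it had 0.0529, 0.0199 and 0.0174 CPM with NSI and 1.09, 0.874 and 1.12 CPM with siFOXA1. These are 5 and 158 summed counts, a ratio of 32.9 with an exact counting interval of 13.8 to 102.8, and the log2 fold change was 4.94 (SE 0.35). Without NSI replicate 1, which held 2.75 of the NSI counts, it was 5.61. Basal epithelial markers, listed because S100A2 marks that layer, summed to 20.1 to 26.3 CPM in PC3 NSI and 20.5 to 22.2 CPM in PC3 siFOXA1. KRT15 held most of the PC3 sum, with 22.6 ± 3.22 CPM in NSI and 20.5 ± 0.856 CPM in siFOXA1. In PC3 NSI TP63 had 0.518 CPM, and KRT5, KRT14 and DSG3 were near 0. In VCaP the basal markers summed to 1.71 to 3.31 and 1.43 to 2.14 CPM, with DSG3 at 0 in siFOXA1. Of the 2 basal markers tested in VCaP, KRT15 rose from 0.101 ± 0.0749 to 0.507 ± 0.0804 CPM (log2 2.31, SE 0.44, edgeR adjusted p 0.0022) and KRT14 fell from 2.29 ± 0.748 to 1.195 ± 0.336 CPM (log2 −0.93, SE 0.28, edgeR adjusted p 0.023). The part of basal markers in the values of the 3 genes was not tested.

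S100A13 (ENSG00000189171.14_3, chromosome 1, 153591275 to 153600715, minus strand) carries FGF1 out of the cell in a copper-dependent complex with synaptotagmin 1, the product of SYT1. In VCaP it had 2.96, 2.48 and 2.61 CPM with NSI and 6.52, 6.03 and 6.22 CPM with siFOXA1. The groups did not overlap, and the means of 2.68 ± 0.250 and 6.26 ± 0.245 CPM differed 2.33-fold (log2 1.22, SE 0.11). In PC3 it had 53.7, 82.1 and 65.1 CPM with NSI and 49.1, 70.4 and 53.3 CPM with siFOXA1, overlapping groups with a log2 fold change of −0.22 (SE 0.18). It was lower in siFOXA1 within each replicate number, and with replicate numbers as a block it had an SE of 0.06 and was called. It was the only member of the 10 whose exons overlap another gene: 34.7% of its exon bases are shared with RP1-178F15.5 on the same strand, where fragments were split between the genes, and 3.05% lie opposite S100A1. RP1-178F15.5 had a log2 fold change of 0.85 in VCaP and −0.12 in PC3, so the S100A13 values carry that uncertainty.

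FGF1 rose in PC3, from 2.06, 2.67 and 1.65 CPM to 11.6, 12.0 and 11.01 CPM, a log2 fold change of 2.44 (SE 0.17, edgeR adjusted p 3.42e-05). In the fit without a replicate block it was the only gene of the 16 partners and receptors called in PC3. There 27.7% of all genes tested were called. ANXA1, TLR4, EZR and IQGAP1, not called in that fit, were higher in siFOXA1 within each PC3 replicate number. ANXA2, CACYBP, SUGT1 and MYH9 were lower within each. Calls of these genes with the block are not reported here. SYT1 did not pass the test in PC3. Neither FGF1 nor SYT1 was tested in VCaP, where each had at most 5 counts in a library.

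S100P (ENSG00000163993.6_2, chromosome 4, 6694796 to 6698896, plus strand), a secreted and intracellular member first found in placenta that binds ezrin and RAGE, was lower in siFOXA1 in both lines. In PC3 it had 80.9, 72.7 and 104 CPM with NSI and 42.9, 47.2 and 40.5 CPM with siFOXA1. The means were 85.9 ± 16.2 and 43.5 ± 3.39 CPM, so siFOXA1 was at 50.7% of NSI (log2 −0.98, SE 0.14). In VCaP it had 37, 15 and 30 counts with NSI and 10, 2.17 and 7 with siFOXA1, or 0.510 ± 0.207 and 0.125 ± 0.0779 CPM. The counts did not overlap, and the ratio of their sums was 0.241 with an exact counting interval of 0.138 to 0.401 (log2 fold change −2.03, SE 0.47). Of its partners, S100PBP fell by 0.18 on the log2 scale in VCaP (SE 0.05, edgeR adjusted p 0.026), and EZR passed the test in neither line.

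Counted over the members, PC3 had 1 called higher (S100A9), 4 called lower (S100A2, S100A16, S100A14 and S100P) and 5 not called. Among all 26478 genes tested in PC3, 27.7% were called, 13.9% higher and 13.9% lower. The same 5 members had groups that did not overlap, 1 higher and 4 lower, against 45.1% of all genes (22.4% higher, 22.7% lower). The median log2 fold change of the 10 was −0.27, against −0.01 over all genes tested. With replicate numbers as a block, 11333 genes were called in PC3 against 7344 without it, and 6 members were called lower, S100A4 and S100A13 having been added. For 6 members, S100A10, S100A11, S100A6, S100A4, S100A2 and S100A13, replicate 2 was the highest library of both PC3 groups.

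VCaP had 7 members called higher, 2 called lower (S100A10 and S100P) and S100A2 not tested, where 45.8% of all 22939 genes tested were called, 22.5% higher and 23.3% lower. All 10 had groups that did not overlap, 8 higher and 2 lower, against 55.9% of all genes (28% higher, 28% lower). Of the 9 tested, 4 passed the filter on low counts in both groups (S100A10, S100A11, S100A6 and S100A13), while S100A9, S100A4, S100A16 and S100A14 passed through siFOXA1 alone and S100P through NSI alone. A member that passes through the group where it is high has to differ, so the count is a description. These counts come from the contrasts known when the genes were picked and support nothing by themselves.

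**Figure D2:**
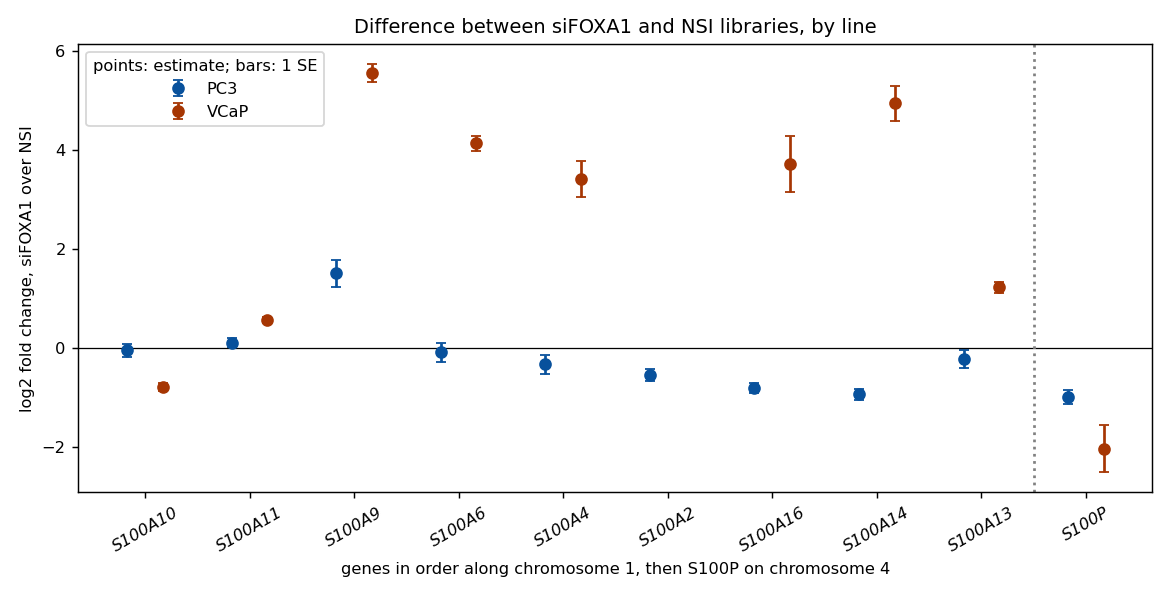
Log2 fold change of siFOXA1 over NSI for each S100 gene, in PC3 and in VCaP, with genes in chromosome order; points are edgeR estimates and bars are 1 SE on each side. The VCaP points run from −2.03 (S100P) to 5.55 (S100A9) and the PC3 points from −0.98 (S100P) to 1.51 (S100A9); S100A2 has no VCaP point because it was not tested there.

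Set against each other in a fit of all 12 libraries, the VCaP effect exceeded the PC3 effect for 8 members and was lower for S100A10 by the same call, where 22.1% of all 30450 genes were called. The difference on the log2 scale ran from −0.75 (SE 0.17) for S100A10 to 5.91 (SE 0.36) for S100A14. That of S100A11, 0.44 (SE 0.12), lost its call under several alternatives. S100P, lower in both lines, differed by −1.07 (SE 0.49) and was not called. S100A9 was higher in both lines and differed by 4.04 (SE 0.32). For S100A2, S100A16 and S100A14, the signs of the effects were opposite in the lines, with differences of 3.71 (SE 0.65), 4.57 (SE 0.49) and 5.91. Without VCaP NSI replicate 1 the differences of S100A14 and S100A16 were 6.62 and 5.49, and without VCaP NSI replicate 3 those of S100A16 and S100A4 were 3.96 and 4.55, against 3.75 (SE 0.51) for S100A4 with it.

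The level of the members without knockdown was compared between the lines in the NSI libraries, a contrast outside the siFOXA1 comparisons that the choice of genes was based on. How the genes were first picked is not recorded in full, and these NSI libraries are also the controls of those comparisons. Of the 10, 9 were called lower in VCaP and 0 higher by the edgeR quasi-likelihood test. For S100A4, S100A2, S100A16 and S100A14, which passed the filter through PC3 alone, the call was built in, so 5 of the 9 calls are tests, those of S100A10, S100A11, S100A6, S100A13 and S100P. Calls were common in this contrast: 87% of 28170 genes were called, 42.4% higher and 44.6% lower in VCaP. S100A10 was the least different of the 9, with 87.5 ± 6.36 CPM in VCaP against 437 ± 63.7 CPM in PC3, a log2 fold change of −2.32 (SE 0.12, edgeR adjusted p 6.94e-09). S100A11 followed at −3.40 (SE 0.11, edgeR adjusted p 7.86e-11) and S100A13 at −4.64 (SE 0.17, edgeR adjusted p 2.62e-10). S100P had −7.39 (SE 0.25, edgeR adjusted p 1.35e-10) and S100A6 −9.72 (SE 0.21, edgeR adjusted p 6.58e-12). As a description, S100A14, S100A4, S100A2 and S100A16 had −7.50, −10.53, −11.41 and −15.22. All 9 had PC3 libraries that lay above every VCaP library, where 88.7% of all genes did not overlap and 45.4% were lower without overlap.

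S100A9 was the exception, with 0.112 ± 0.0284 CPM in PC3 NSI and 0.158 ± 0.0355 in VCaP NSI, overlapping groups and a log2 fold change of 0.46 (SE 0.38, edgeR adjusted p 0.28). It was also scarce in both lines. It passed the filter through VCaP alone. The size of the largest differences between the lines is set by a few VCaP counts. Without VCaP NSI replicate 1 the S100A16 value was −16.16 and the S100A14 value −8.22, against −7.50 with it. Without VCaP NSI replicate 3, S100A16 was −14.63 and S100A4 −11.34, against −10.53 with it. After siFOXA1, S100A6 in VCaP stood at 15.9 CPM against 766 ± 137 CPM in PC3 NSI, and S100A14 at 1.03 ± 0.135 against 5.87 ± 0.0390 CPM. S100A9 alone stood higher in VCaP siFOXA1 than in any PC3 library.

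**Figure D3:**
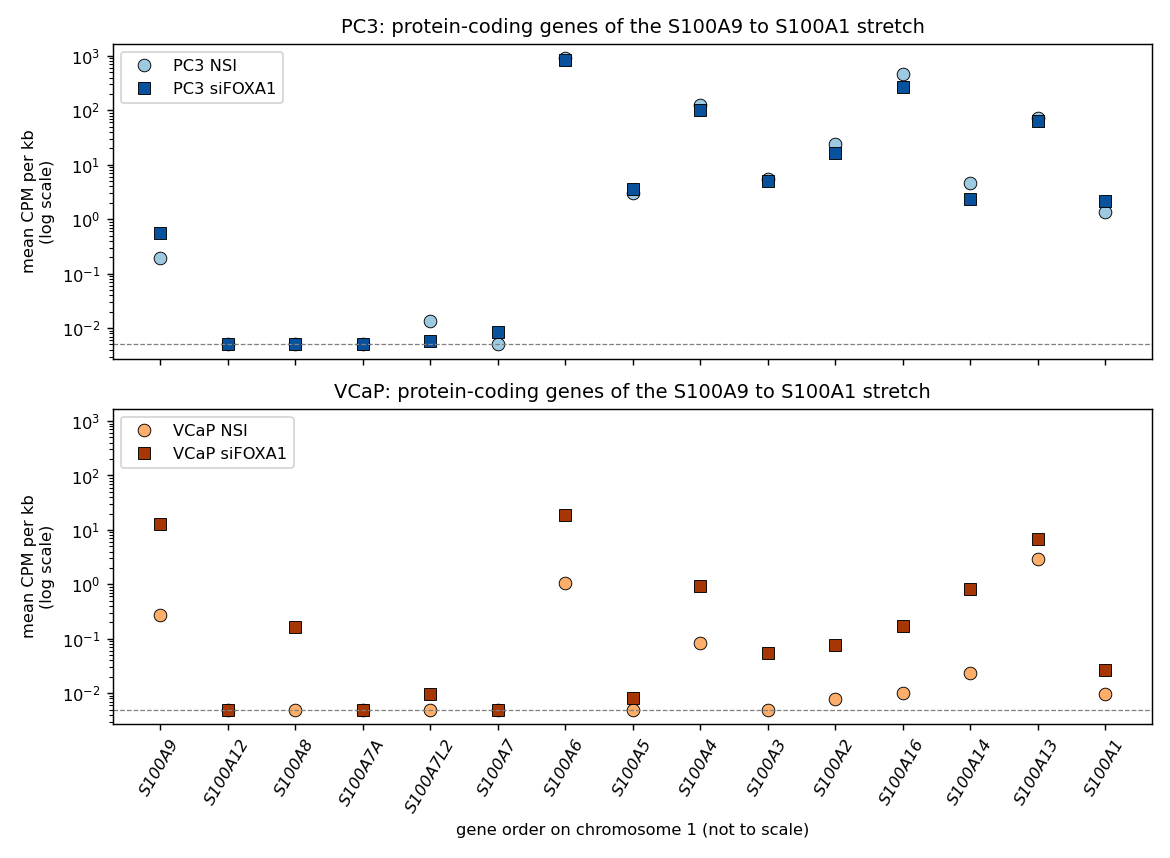
Mean level of the 15 protein-coding genes of the S100A9 to S100A1 stretch of chromosome 1, in CPM per kb of exon on a log axis, for NSI (circles) and siFOXA1 (squares) in PC3 (top) and VCaP (bottom); symbols on the dashed line are at or under 0.005. In VCaP the squares of S100A9, S100A6, S100A4, S100A2, S100A16, S100A14 and S100A13 lie above the circles. So do those of S100A8, S100A7L2, S100A5, S100A3 and S100A1, which were not tested there. In PC3 the squares of S100A2, S100A16 and S100A14 lie below. Those of S100A6, S100A4, S100A3 and S100A13, not called, lie below by a smaller ratio, as does that of S100A7L2 near the dashed line by a larger one.

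The stretch from S100A9 to S100A1 spans 274 kb and holds 15 protein-coding genes, all of them S100 genes. In VCaP 6 of these were tested and 6 were called higher, where 22.5% of all genes tested were. All 6 are members picked with this contrast known, and S100A9, S100A4, S100A16 and S100A14 passed the filter only through siFOXA1, so this count is a description. In PC3 10 were tested, of which 2 were called higher (S100A9 and S100A1) and 3 lower. All but S100A1 of these calls were members. The 7 annotated genes of other kinds in the stretch, which were not picked for their values, had 3 tested in each line, with 0 called in PC3 and 2 called higher in VCaP. One of the 2 is RP1-178F15.5, which shares exon bases with S100A13, and the other is the small RNA pseudogene RN7SL44P (log2 0.74). CHTOP, the next gene beyond the stretch, chosen after its values were seen, had a log2 fold change of −0.14 (SE 0.06, edgeR adjusted p 0.068) in VCaP and fell by 0.46 (SE 0.09, edgeR adjusted p 0.0056) in PC3. In VCaP it had 76.9 ± 1.504 CPM with NSI and 69.7 ± 2.703 CPM with siFOXA1. Whether the VCaP differences end at the edge of the stretch was not tested.

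The 11 S100 genes outside the 10 were mostly low, with a summed level of 8.32 to 10.5 CPM in PC3 NSI and 4.48 to 7.53 CPM in VCaP NSI. In PC3 5 passed the filter, of which S100A1, a member best known from heart muscle, was called higher and 0 lower. It rose from 1.24, 1.46 and 1.39 CPM to 2.00, 2.29 and 2.14 CPM, a log2 fold change of 0.65 (SE 0.14, edgeR adjusted p 0.0094). In VCaP S100Z alone passed the filter, and its 5.92 ± 1.52 and 7.02 ± 0.507 CPM did not pass the test (log2 0.25, SE 0.17, edgeR adjusted p 0.26). S100A3, in the main stretch, had 5.17 ± 0.799 CPM in PC3 NSI and was not called in PC3. Its VCaP counts were 0, 0.5 and 0 with NSI and 0.5, 3 and 4.5 with siFOXA1. On those few counts its VCaP minus PC3 difference was called (log2 3.08, SE 1.02, edgeR adjusted p 0.041). Of the 11, 4 were tested in that fit and S100A3 alone was called, where 22.1% of all genes were. Of the 7 fused S100 genes, large skin barrier proteins that begin with an S100 domain, 5 were tested in PC3 and 2 were called higher, RPTN (log2 1.27, SE 0.15, edgeR adjusted p 5.73e-04) and FLG2 (log2 1.64, SE 0.43, edgeR adjusted p 0.023). None of the 7 was tested in VCaP, where none passed the filter.

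Among all genes tested in VCaP, 45.8% were called, 22.5% higher and 23.3% lower. Of the 16 partners and receptors, 14 were tested there, of which 2 were called higher (ANXA2 and TLR4) and 6 lower. Beside CACYBP, SUGT1 and S100PBP, these included ANXA6, a membrane-binding annexin that fell by 0.62 on the log2 scale (SE 0.07, edgeR adjusted p 1.29e-04), and IQGAP1, a scaffold of the actin cortex that fell by 0.60 (SE 0.06, edgeR adjusted p 4.43e-05). The median log2 fold change of the 14 was −0.08 in VCaP, against 0.02 over all genes tested, and that of the 16 in PC3 was −0.01, equal to the median of all genes at this rounding.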

How the data were processed

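Gene-level RNA sequencing counts of 12 libraries were used. The authors' estimated counts came, per the file headers, from featureCounts 2.0.0 (Subread) on GENCODE v28lift37 basic genes of GRCh37, splitting fragments among several places or genes. PC3 counting ignored strand and VCaP counting used the reverse strand. STAR 2.7.3a is named in the submitters' processing notes.

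From these, counts were rounded to whole numbers, ties upward. Each line's 6 libraries, all 12, or the 6 NSI libraries were fitted with edgeR 4.0.16 in R 4.3.3: TMM factors, filterByExpr (minimum count 10), a two-sided quasi-likelihood test and Benjamini-Hochberg adjustment over all genes tested, with a call under 0.05. The procedure was tested on simulated data. CPM used each line's TMM factors; CPM per kb was divided by the deposited exon length. SE was the log2 fold change divided by the square root of F. Biological variation (edgeR's coefficient) was 14.9% in PC3 and 9.89% in VCaP. At the lowest total of 48187047 counts, low members rested on few counts, as given beside them.

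The members and lists were chosen with earlier results of these data known. Named genes were FOXA1, the 10 members, and the other S100 genes, fused S100 genes, partners and receptors that were called; chromosome 1 neighbours were counted. Some genes of these lists are not reported here. Promoters came from RefSeq tables.

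Replicates in a group differed by a chi-square of 9.77 to 141 per degree of freedom, so none was a copy. The titles give both arms the same replicate numbers. Deviations of same-numbered PC3 libraries from their group means correlated across genes at 0.41, 0.56 and 0.20, so the numbers were taken to pair in PC3. Replicates 1 and 2 correlated best with their own number and replicate 3 did not. The main fit still used no replicate block, which was run as an alternative. For named genes other than the members, calls are those of the main fit alone. Alternatives were DESeq2 1.42.0, its size factors in edgeR, library size alone, no filter, counts rounded down, the replicate block, a joint fit and leaving out each library.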

Additional observations from a re-analysis of the deposited data

Results flagged for a closer look

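For 9 of the 10 genes, the effect of siFOXA1 differed between VCaP and PC3 in the interaction term of the 12-library edgeR fit, and they are listed for that reason. Among all 30450 genes of that fit, 22.1% were called. The VCaP effect minus the PC3 effect, on the log2 scale, was −0.75 for S100A10, 0.44 for S100A11, 4.04 for S100A9, 4.21 for S100A6, 3.75 for S100A4, 3.71 for S100A2, 4.57 for S100A16, 5.91 for S100A14 and 1.43 for S100A13. Because the term is built from the contrasts known when the genes were picked, it is a description. The line cannot be told apart from the siRNA dose, the medium, the library kit and the strand setting, and FOXA1 itself was lowered to different degrees. The S100A11 difference was no longer called with library size alone (0.35), nor without PC3 NSI replicate 3 (0.37), PC3 siFOXA1 replicate 1 (0.37), PC3 siFOXA1 replicate 3 (0.36), VCaP NSI replicate 1 (0.43), VCaP NSI replicate 2 (0.41) or VCaP siFOXA1 replicate 2 (0.43).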

How the results depend on the processing

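Of 544 values of members under alternative settings, 0 that were called changed sign. The NSI differences of the 9 members called between the lines kept direction and call in all 12 alternatives. That of S100A9, not called, had a value in 9 alternatives, from 0.30 to 0.61. Leaving out a library moved values that rest on few VCaP counts. Without VCaP NSI replicate 3 the VCaP effect of S100A4 was 4.19, against 3.42 with it. Without VCaP NSI replicate 1 that of S100A16 was 4.55, against 3.71 with it. The S100A14 VCaP minus PC3 difference was 6.62 without VCaP NSI replicate 1, against 5.91. The PC3 count of 7344 called genes was 11333 with the replicate block and 3963 to 7628 with a library left out. It was 3963 without siFOXA1 replicate 1 and 4738 without NSI replicate 3. With library size alone, 64.3% of the 7169 PC3 calls were higher, against 50.04% with TMM. The VCaP minus PC3 calls then split into 2643 higher and 3888 lower, against 3379 and 3365. Members called lower in the VCaP minus PC3 difference were 2 with DESeq2, which added S100P, and 1 otherwise, and those called higher were 7 to 8, S100A11 being lost in 7 settings. In PC3, 3 to 6 members were called lower over the alternatives, while S100A9 alone was called higher in each of the 13. In VCaP 7 to 8 were called higher, S100A2 being added with no filter or in the joint fit. The signs of S100A10 (−0.17 to 0.13) and S100A6 (−0.33 to 0.10) in PC3, neither of them called, changed between settings. In VCaP same-numbered libraries correlated at 0.09, 0.05 and 0.33, so they share only a number; the replicate block gave 11474 calls against 10500 and the same member calls, and replicate 3 of the 3 correlated best with its own number. Members under 1 CPM in VCaP are limited by depth.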
